A study of Arabidopsis thaliana with 6 samples.

Results

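The plastid genome of Arabidopsis thaliana encodes part of the photosynthetic machinery and much of the apparatus that transcribes and translates it. Transcripts of 69 plastid-encoded genes were followed here in petioles, the leaf stalks, among 13356 distinct genes that had a probe set annotated to 1 gene. The members are the genes that lie on the plastid genome in the RefSeq gene table and have such a probe set, and each had exactly 1. They fall by gene symbol into 5 psa genes (photosystem I), 15 psb genes (photosystem II), 6 pet genes (cytochrome b6f complex), 6 atp genes (ATP synthase), 10 ndh genes (NADH dehydrogenase-like complex), rbcL, 4 rpo genes (RNA polymerase), 15 rps and rpl genes (ribosomal proteins) and 7 others. For 7 further plastid genes, namely rps12, rpl2, rpl23, ycf2, ndhB, rps7 and ycf1, the probe sets are annotated to more than 1 gene entry of the same symbol, and these are not members. The 37 tRNA and 7 rRNA genes had no named probe set.

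Plants set at 2066 plants per m2 to form a dense canopy (canopy, 3 arrays) were compared with plants kept apart (single, 3 arrays). Each array carried RNA pooled from 4 plants, with 2 young petioles taken per plant. Both groups shared 9 h light and 15 h dark at 20°C, a move to individual pots after 10 days and a harvest at about 23 days after sowing, when the canopies had a leaf area index of 0.9. The labels name the species and no genotype or accession.

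Plastid genes are read by a plastid-encoded RNA polymerase, built from the rpo products and guided by nuclear sigma factors, and by nuclear-encoded phage-type polymerases. Most are transcribed together with their neighbours into long precursors that nuclear-encoded proteins cut, edit and protect. In green cells the photosynthesis genes are read mainly by the plastid-encoded polymerase, while rpoB, its neighbours rpoC1 and rpoC2, and accD are read by the nuclear-encoded ones. Mature plastid transcripts carry no stable poly(A) tail, whereas the labelling kit used here starts from poly(A). How much of each plastid transcript this priming reached was not measured. Fragments of plastid DNA are also found in plant mitochondrial and nuclear genomes, and a probe set cannot tell such copies apart.

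No plastid-encoded gene passed the test for a difference between canopy and single plants. With limma over all 22746 probe sets, 0 of the 69 genes were called at a Benjamini-Hochberg adjusted p under 0.05, against 0.677% of all probe sets tested (0.426% higher and 0.251% lower in the canopy). The smallest adjusted p among the 69 was 0.29, for psaC. At an unadjusted p under 0.05, 0 plastid genes were higher in the canopy, where 5.13% of all probe sets were, and 5 were lower (psaC, rps2, rps15, ycf3 and atpH), where 7.11% of all probe sets were. The canopy and single values did not overlap for 2 genes that were higher in the canopy (atpE and ndhC), against 7.71% of all probe sets. They did not overlap for 3 that were lower (psaC, petG and rps2), against 9.3% of all probe sets. In pooled petioles, fewer plastids or green cells and less RNA per cell cannot be told apart.

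The differences were small and lay on both sides of 0. On the log2 scale, 41 of the 69 genes were lower and 28 higher in the canopy, with a median of -0.06 and a range of -0.50 (ycf4) to 0.33 (rps18). Over all probe sets tested the median was -0.003, and 51% were lower. The 95% interval of the difference lay wholly within a 2-fold change either way for 66 of the 69 genes, all but psaA, rpl20 and ycf4, and within a 1.5-fold change for 57. These intervals are not adjusted for the number of genes. Of the intervals of all 22746 probe sets tested, 22313 lay within a 2-fold change and 19850 within a 1.5-fold change. The intervals of the 8 plastid probe sets left out, which stand for genes with more than 1 entry, also lay within 2-fold, and 0 of the 8 were called.

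**Figure D1:**
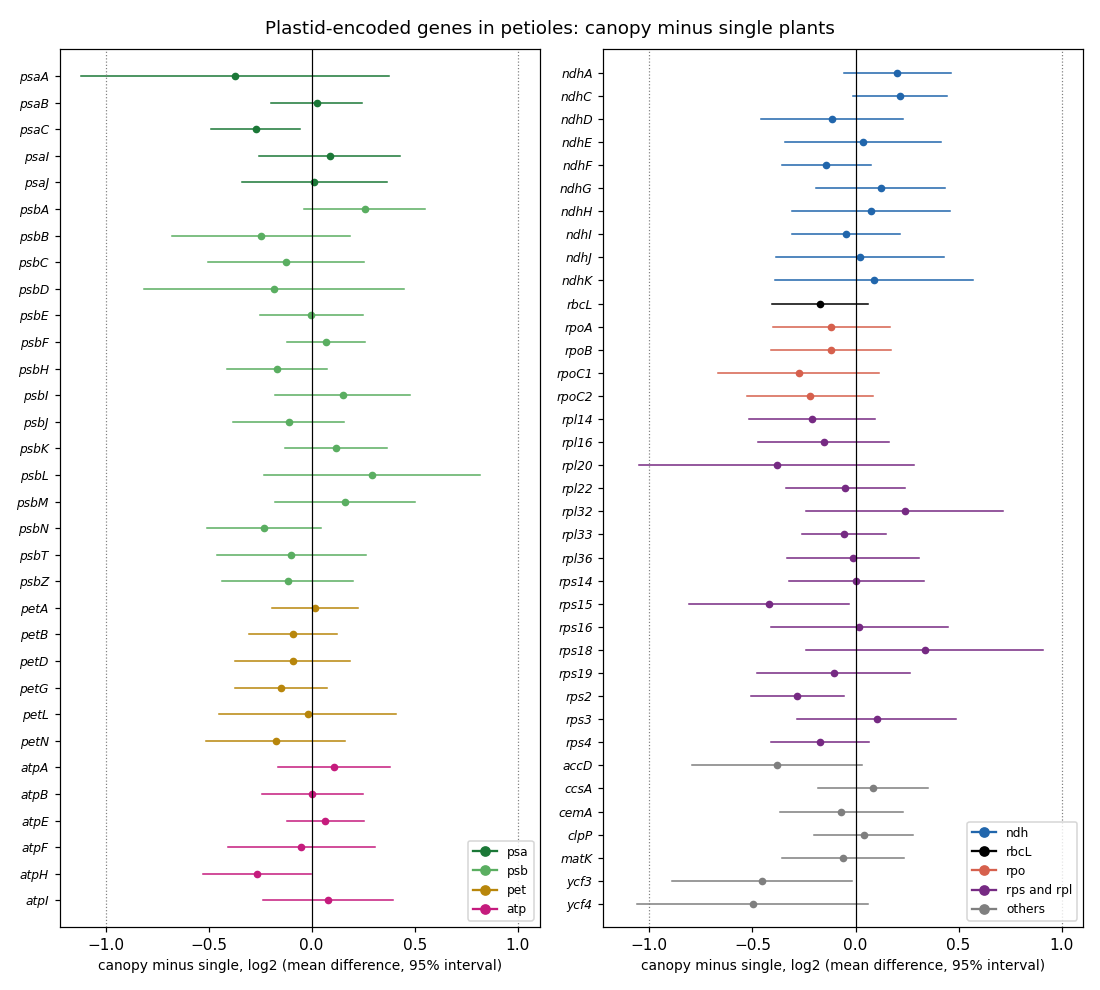
Difference between canopy and single plants for each of the 69 plastid-encoded genes (log2, points) with its 95% interval (lines), coloured by class. All points lie between -0.50 and 0.33, and 3 intervals cross the dotted line at -1.

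Plastid genes shifted together on some arrays. The array medians over all probe sets lay between 1.28 and 1.30 in the canopy and between 1.30 and 1.32 in single plants. Among the 3 single-plant arrays, replicate 2 held the highest value for 56 of the 69 plastid genes (81.2%), against 31.2% of all probe sets tested. Among the 3 canopy arrays, replicate 2 held the lowest value for 39 of the 69 (56.5%), against 31% of all probe sets. The median deviation of a plastid gene from its own mean over the 6 arrays was 0.04, -0.13 and 0.01 in canopy replicates 1, 2 and 3, and -0.003, 0.17 and -0.06 in single replicates 1, 2 and 3. Over all probe sets this deviation lay between -0.013 and 0.001. The count of genes lower in the canopy therefore depended on which arrays were used. It was 33 of 69 without single replicate 2 and 33 of 69 without canopy replicate 2, against 50 of 69 without single replicate 3, while the median difference ran from -0.12 to 0.01 over the 6 fits that left out 1 array. Over the same fits the medians of the psa, psb, atp, ndh, rps and rpl, and other genes each lay on both sides of 0, while those of the pet and rpo genes and the difference of rbcL stayed below it.

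The spiked poly(A) control dap (mean of 3 probe sets) stood at 3.88, 4.12 and 4.26 in the canopy and at 4.54, 4.22 and 4.35 in single plants. For actin, the signal of the 3′ probe set minus that of the 5′ one, which reflects RNA integrity, was 1.28, 1.39 and 1.50 in the canopy and 1.71, 1.68 and 1.53 in single plants. The poly(A) controls thr and phe averaged 1.63 ± 0.16 and 1.49 ± 0.05 in the canopy and 1.80 ± 0.07 and 1.63 ± 0.10 in single plants, and lys averaged 1.14 ± 0.08 in the canopy and 1.11 ± 0.03 in single plants (SD, n = 3 each, log2). Of the canopy arrays, replicate 2 was the lowest for phe and for none of the others, and all of these controls, actin included, were highest among the single-plant arrays on replicate 1. The part of the controls in the plastid values was not tested.

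**Figure D2:**
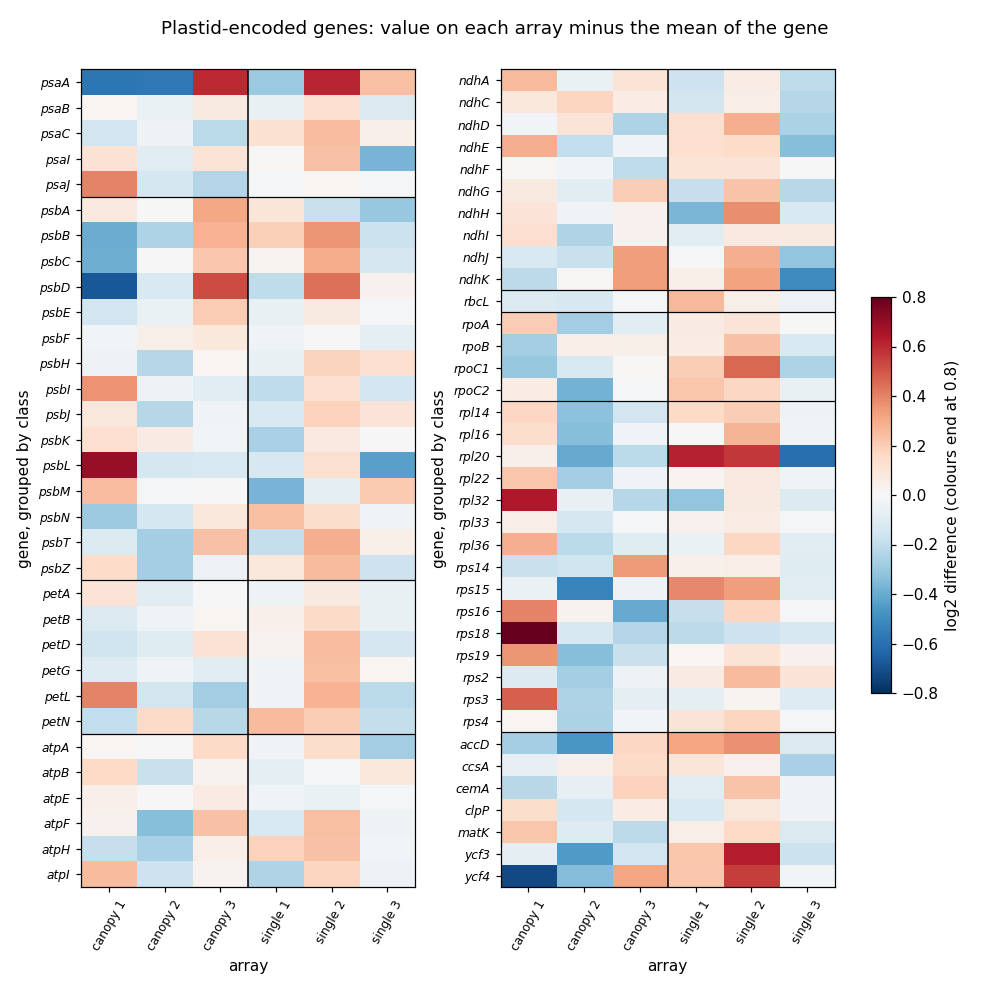
Value on each array minus the mean of the gene over the 6 arrays (log2, colour), with the 69 genes in rows by class and the canopy arrays left of the single-plant arrays. The column of single replicate 2 is mostly red, and canopy replicate 1 holds both the strongest red (rps18) and the strongest blue (ycf4, psbD) cells of the canopy.

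The spread between replicates of 1 group sets what the comparison can show. The pooled within-group SD had a median of 0.20 over the 69 genes and 0.13 over all probe sets tested. The middle range of plastid levels, between their quartiles of 4.89 and 8.50, holds 35 of the 69 genes and 2409 of all probe sets. There the median SD was 0.22 for the plastid genes and 0.14 for all probe sets. Levels ran from 0.91 (ndhF) to 11.2 (atpE) over the 69 genes, with a median of 6.94, against 1.29 over all probe sets. Levels of different probe sets depend on their probes and are not ranked against each other. The values are log2 expression values with an unknown zero point, so a level near the low end, such as those of ndhF, rpoB and rps14, may hold little signal.

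Photosystem I takes electrons to ferredoxin, and its reaction centre is formed by PsaA and PsaB. Of the 5 psa genes, 3 were higher and 2 lower in the canopy, with a median difference of 0.01 (log2). The iron-sulphur subunit gene psaC stood at 1.41, 1.52 and 1.35 in the canopy and at 1.69, 1.81 and 1.60 in single plants. The groups did not overlap, at a low level on both sides, and the difference was -0.27 ± 0.10 (log2, SE, n = 3 per group; limma adjusted p = 0.29). The reaction-centre gene psaA stood at 4.68, 4.69 and 5.86 in the canopy and at 4.97, 5.87 and 5.50 in single plants. Canopy replicate 3 was level with the highest single-plant array, while canopy replicates 1 and 2 lay below all of them, and the difference was -0.37 ± 0.33 (log2, SE; limma adjusted p = 0.74). Over the 6 fits that left out 1 array it ran from -0.76 (without canopy replicate 3) to -0.16 (without single replicate 2). Its partner psaB, which follows it in the same transcript, stood at 10.17, 10.11 and 10.23 in the canopy and at 10.10, 10.29 and 10.04 in single plants, with fully overlapping groups. The small subunit genes psaI and psaJ differed by 0.09 and 0.01 (log2).

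Photosystem II splits water, and its reaction centre is a pair of related proteins, PsbA and PsbD. Of the 15 psb genes, 6 were higher and 9 lower in the canopy, with a median difference of -0.10 (log2). psbA, whose product is damaged and replaced rapidly in light, stood at 6.43, 6.36 and 6.67 in the canopy and at 6.46, 6.18 and 6.05 in single plants. Canopy replicates 1 and 2 lay among the single-plant values, and the difference was 0.26 ± 0.13 (log2, SE; limma adjusted p = 0.48). psbD stood at 5.02, 5.57 and 6.21 in the canopy and at 5.49, 6.13 and 5.73 in single plants. This was the widest range among the canopy arrays of any plastid gene, and the canopy values enclosed the single-plant ones (-0.18 ± 0.28, log2, SE). Leaving out 1 array gave -0.49 to 0.11 for psbD, with 0.11 reached without canopy replicate 1. psbN, which encodes an assembly factor and lies on the strand opposite its neighbours psbT and psbH, stood at 3.69, 3.84 and 4.07 in the canopy and at 4.22, 4.12 and 3.95 in single plants, a difference of -0.23 ± 0.12 (log2, SE; limma adjusted p = 0.51). psbM, of a small subunit, stood at 10.07, 9.82 and 9.83 in the canopy and at 9.45, 9.75 and 10.03 in single plants, with overlapping groups. The difference of psbL, another small subunit, was 0.29 ± 0.23 (log2, SE). It stood at 6.05 in canopy replicate 1, against 5.22 and 5.23 in the other canopy arrays, and at 5.22, 5.48 and 4.92 in single plants. Without canopy replicate 1 the difference was 0.02, and over all 6 fits that left out 1 array it ran from 0.02 to 0.43.

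The cytochrome b6f complex passes electrons between the photosystems. Of the 6 pet genes, 1 was higher and 5 lower in the canopy, with a median difference of -0.09 (log2). petB, of cytochrome b6, stood at 9.77, 9.85 and 9.90 in the canopy and at 9.93, 10.04 and 9.83 in single plants (-0.09 ± 0.09, log2, SE). The gene of cytochrome f, petA, differed by 0.02 ± 0.09 (log2, SE). The small subunit gene petG stood at 1.28, 1.35 and 1.30 in the canopy and at 1.35, 1.62 and 1.40 in single plants. All canopy values lay below the single-plant ones, the nearest being equal to 2 decimals, and the difference was -0.15 ± 0.10 (log2, SE; limma adjusted p = 0.63). petN, of another small subunit, stood at 1.69, 2.03 and 1.66 in the canopy and at 2.13, 2.08 and 1.69 in single plants, with overlapping groups (-0.17 ± 0.15, log2, SE).

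The chloroplast ATP synthase has a catalytic head made by atpA, atpB and atpE with nuclear partners, and a membrane part made by atpF, atpH and atpI. Of the 6 atp genes, 4 were higher and 2 lower in the canopy, with a median difference of 0.04 (log2). atpH, which encodes the rotating ring, stood at 6.76, 6.69 and 7.002 in the canopy and at 7.13, 7.19 and 6.93 in single plants. The groups overlapped through canopy replicate 3 and single replicate 3, and the difference was -0.26 ± 0.12 (log2, SE; limma adjusted p = 0.40). atpE stood at 11.25, 11.21 and 11.28 in the canopy and at 11.17, 11.16 and 11.20 in single plants. The groups did not overlap, yet the difference was only 0.07 ± 0.08 (log2, SE; limma adjusted p = 0.83). atpA stood at 9.31, 9.29 and 9.44 in the canopy and at 9.27, 9.44 and 9.01 in single plants, with overlapping groups.

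The ndh genes encode the plastid part of a complex that carries electrons around photosystem I. Of the 10 genes, 7 were higher and 3 lower in the canopy, with a median difference of 0.06 (log2). ndhC stood at 8.29, 8.37 and 8.26 in the canopy and at 8.05, 8.25 and 7.97 in single plants. The groups did not overlap, though the lowest canopy value lay close to that of single replicate 2, and the difference was 0.22 ± 0.10 (log2, SE; limma adjusted p = 0.44). ndhA stood at 8.27, 7.97 and 8.13 in the canopy and at 7.86, 8.08 and 7.82 in single plants, a difference of 0.20 ± 0.11 (log2, SE). ndhI stood at 10.19, 9.82 and 10.09 in the canopy and at 9.97, 10.14 and 10.13 in single plants, with overlapping groups. Single replicate 3 was the lowest of all 6 arrays for 7 of the 10 ndh genes. It was the lowest for 15 of the 69 plastid genes and for 3556 of all 22746 probe sets. Without this array the median difference of the ndh genes was -0.07 (log2).

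rbcL encodes the large subunit of Rubisco, the enzyme that fixes carbon dioxide. It stood at 8.07, 8.06 and 8.18 in the canopy and at 8.45, 8.23 and 8.15 in single plants. The groups overlapped only in that canopy replicate 3 lay above single replicate 3, and the difference was -0.17 ± 0.10 (log2, SE; limma adjusted p = 0.58). Its 95% interval, -0.41 to 0.06, lay within a 1.5-fold change.

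The rpo genes encode the core of the plastid-encoded polymerase. All 4 were lower in the canopy, with a median difference of -0.17 (log2), and 0 passed the test. rpoC1 stood at 5.77, 5.95 and 6.09 in the canopy and at 6.27, 6.53 and 5.83 in single plants, a difference of -0.28 ± 0.17 (log2, SE; limma adjusted p = 0.60). rpoC2 stood at 5.56, 5.12 and 5.48 in the canopy and at 5.72, 5.66 and 5.43 in single plants, a difference of -0.22 ± 0.13 (log2, SE). Both pairs of groups overlapped through single replicate 3. rpoA, which lies at the end of a long ribosomal protein unit, stood at 8.63, 8.16 and 8.35 in the canopy and at 8.51, 8.55 and 8.44 in single plants. rpoB, of the second largest subunit, was near the low end of the scale with a mean of 0.95 (-0.12 ± 0.13, log2, SE).

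The rps and rpl genes encode proteins of the small and the large subunit of the plastid ribosome. Of the 15 rps and rpl genes, 5 were higher and 10 lower in the canopy, with a median difference of -0.06 (log2). rps2, at the head of an atp transcript, stood at 5.86, 5.70 and 5.93 in the canopy and at 6.04, 6.23 and 6.08 in single plants. The groups did not overlap, and the difference was -0.28 ± 0.10 (log2, SE; limma adjusted p = 0.29). rps15 stood at 4.20, 3.72 and 4.21 in the canopy and at 4.64, 4.59 and 4.16 in single plants, where single replicate 3 lay below 2 canopy arrays (-0.42 ± 0.17, log2, SE; limma adjusted p = 0.36). rpl20 stood at 4.34, 3.89 and 4.08 in the canopy and at 4.91, 4.86 and 3.69 in single plants. This was the widest range among the single-plant arrays of any plastid gene, and the difference was -0.38 ± 0.29 (log2, SE; limma adjusted p = 0.68). It depended on the array left out, at -0.78 without single replicate 3 (limma adjusted p = 0.098), -0.17 without single replicate 1 (limma adjusted p = 0.92) and -0.20 without single replicate 2 (limma adjusted p = 0.90). rps4 stood at 9.69, 9.42 and 9.65 in the canopy and at 9.78, 9.85 and 9.66 in single plants (-0.17 ± 0.10, log2, SE).

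Of the 7 other genes, 2 were higher and 5 lower in the canopy, with a median difference of -0.07 (log2). With all 6 arrays, the most negative differences of the 69 genes were those of ycf4 and ycf3, which encode assembly factors of photosystem I, and neither passed the test. ycf3 stood at 6.02, 5.64 and 5.94 in the canopy and at 6.31, 6.72 and 5.92 in single plants, a difference of -0.45 ± 0.19 (log2, SE; 0.73-fold; limma adjusted p = 0.39). ycf4 stood at 4.43, 4.80 and 5.46 in the canopy and at 5.36, 5.70 and 5.12 in single plants, a difference of -0.50 ± 0.25 (log2, SE; 0.71-fold; limma adjusted p = 0.47). The groups overlapped through single replicate 3 for ycf3 and through single replicates 1 and 3 for ycf4. Leaving out 1 array gave -0.65 (without single replicate 3) to -0.25 (without single replicate 2) for ycf3, and -0.78 (without canopy replicate 3) to -0.26 (without canopy replicate 1) for ycf4. The order of the genes changed as well, since rpl20 lay below both without single replicate 3. accD, of a subunit of acetyl-CoA carboxylase in fatty acid synthesis, stood at 4.62, 4.42 and 5.05 in the canopy and at 5.20, 5.25 and 4.77 in single plants, a difference of -0.38 ± 0.18 (log2, SE; limma adjusted p = 0.45). clpP, of the plastid Clp protease, stood at 9.42, 9.14 and 9.34 in the canopy and at 9.16, 9.37 and 9.26 in single plants, with overlapping groups. matK (an intron maturase), cemA (an envelope protein) and ccsA (a cytochrome c assembly factor) differed by -0.06, -0.07 and 0.09 (log2).

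**Figure D3:**
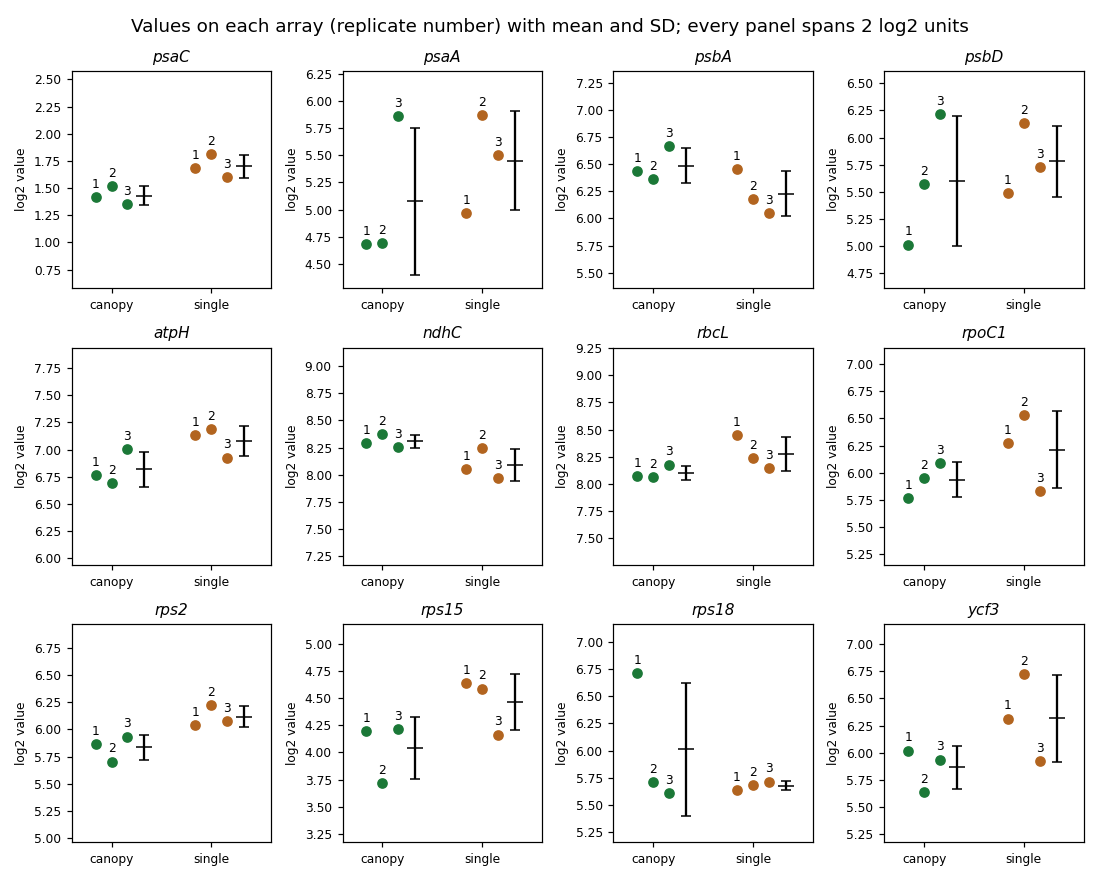
Values of 12 plastid-encoded genes on each array (log2, points numbered by replicate) with the mean and SD of each group (bars, n = 3). psaC and rps2 lie wholly lower and ndhC wholly higher in the canopy, while the 9 others overlap between the groups.

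Genes of 1 transcript unit are made together and then processed. Of genes that the nuclear-encoded polymerases read, the 4 listed here were rpoB, rpoC1, rpoC2 and accD, which is not a full list. All 4 were lower in the canopy, between -0.38 and -0.12 (log2), and 0 of the 4 passed. Of these, rpoB, rpoC1 and rpoC2 lie in 1 unit. The 5 genes of the psbB, psbT, psbH, petB and petD unit were also all lower, between -0.25 and -0.09. The 3 genes of the ndhC, ndhK and ndhJ unit were all higher, between 0.02 and 0.22. In the unit that runs from the ribosomal protein genes to rpoA, 6 of the 7 members were lower, with rps3 the exception at 0.10. Of its genes whose probe sets are annotated to more than 1 gene entry, rpl23 was higher (0.18) and rpl2 lower (-0.22). The 3 genes of the psbD, psbC and psbZ unit and both of petL and petG were lower, and both genes of atpB and atpE and of psbK and psbI were higher. Further units held genes on both sides, such as rps2, atpI, atpH, atpF and atpA, where 3 were lower and 2 higher. Among the members, psbD and psbC, atpB and atpE, and rps3 and rpl22 overlap by 53, 4 and 16 bases in the gene table. Neighbours in a unit share their source transcript, so their agreement in direction is no count of independent genes.

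Within the canopy group, plastid genes did not vary as 1 block. Canopy replicate 1 was set against the mean of canopy replicates 2 and 3 after its values had been seen, as a description with no test. It was above that mean for 14 of the 15 ribosomal protein genes among the members, all but rps14, with a median of 0.37 (log2). By comparison, 46.9% of all probe sets tested were above, and 51.4% of those in the middle range of plastid levels. Canopy replicate 2 was itself low for this class, holding the lowest of all 6 values for 10 of the 15 genes. The median deviation of the class from the mean over the 6 arrays was 0.16, -0.25 and -0.08 in canopy replicates 1, 2 and 3. In single replicates 1, 2 and 3 it was 0.02, 0.16 and -0.04. In canopy replicate 1, all 7 members of the unit ending in rpoA were above the mean of canopy replicates 2 and 3. The excess was 0.32 to 0.64, with rps3 at 0.64 and rps19 at 0.61. Probe sets annotated to more than 1 gene entry were not counted here and did not all lie above. In canopy replicates 1, 2 and 3, rpl2 of this unit stood at 9.94, 9.92 and 10.05, and rpl23 at 9.10, 8.79 and 8.82. The probe sets of rps12 stood at 5.18, 4.86 and 5.58 and at 8.54, 8.40 and 8.70. For rps7 the values were 9.86, 9.40 and 10.03. The largest excess was that of rps18, which stood at 6.71 in canopy replicate 1, against 5.71 and 5.61 in the other canopy arrays, and at 5.64, 5.68 and 5.71 in single plants. Its difference between the groups was 0.33 ± 0.25 (log2, SE), and over the 6 fits that left out 1 array it ran from -0.02 (without canopy replicate 1) to 0.54 (without canopy replicate 3). Further genes over 0.5 above were psbL, rpl32, petL, rps16 and psaJ, at 0.82, 0.78, 0.61, 0.59 and 0.58. In all 8 plastid genes lay over 0.5 above, where 2.33% of all probe sets did and 3.74% of those in the middle range of plastid levels.

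Other genes lay below on the same array. psbD lay 0.88 below the mean of the other canopy arrays (a deviation of -0.88), ycf4 at -0.70 and psaA at -0.59, and psbC, which overlaps psbD, at -0.50. Only psbD, ycf4 and psaA, 3 of the 69 plastid genes, lay more than 0.5 below (psbC was at -0.497). Of all probe sets tested, 2.21% lay more than 0.5 below, as did 3.57% of those in the middle range of plastid levels. The psb genes as a class were split, 7 above and 8 below, and the median of the 10 ndh genes was 0.07. Along the plastid genome, the run from petL to clpP and the run from rpoA to rps19 held genes above in canopy replicate 1, with petG at -0.04 the exception. What lay behind the differences among the canopy arrays was not tested.

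**Figure D4:**
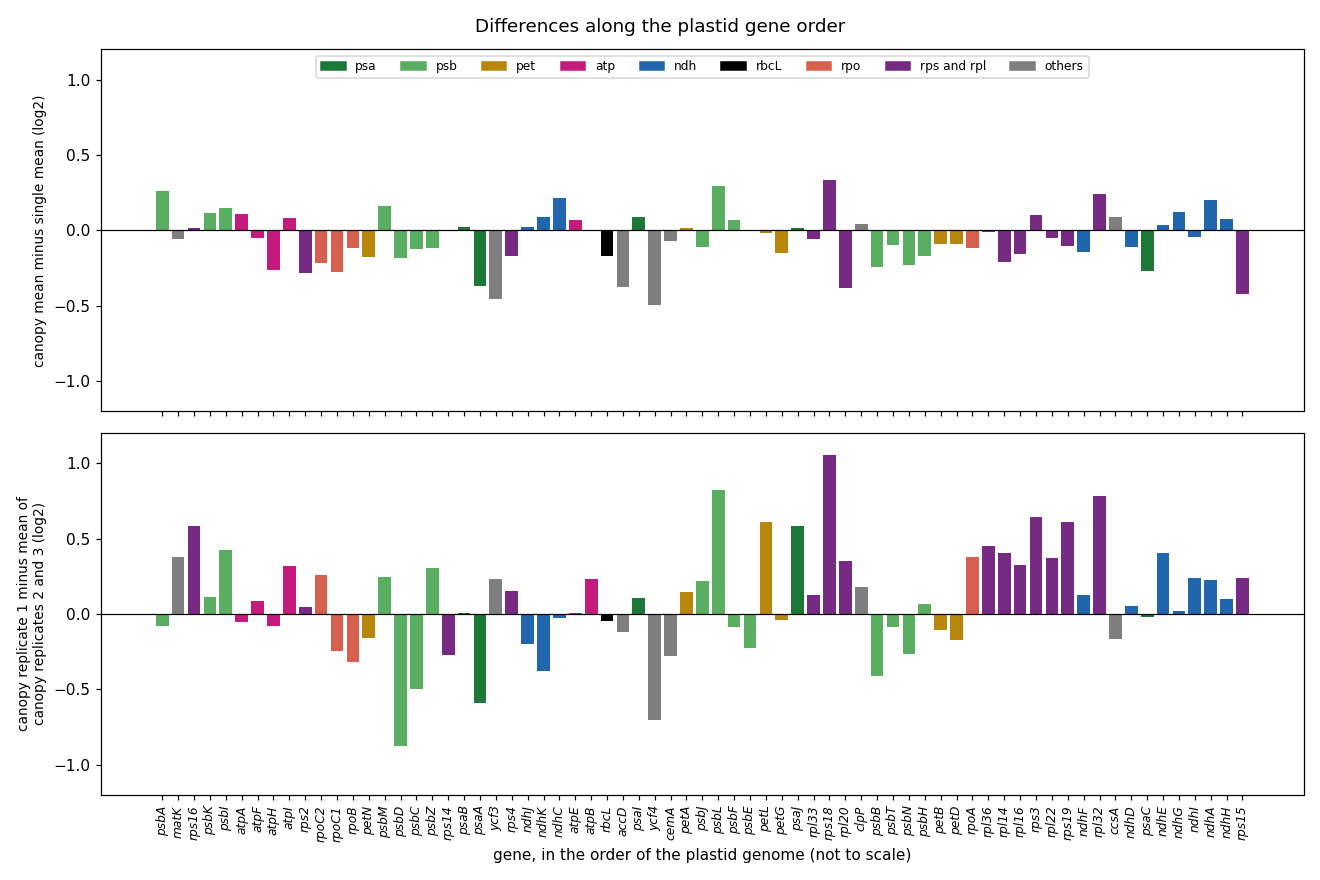
Plastid-encoded genes in the order of the plastid genome (not to scale), coloured by class, with the difference between canopy and single means (upper bars, log2) and the deviation of canopy replicate 1 from the mean of canopy replicates 2 and 3 (lower bars, log2). The lower bars reach 1.05 (rps18) and -0.88 (psbD), while the upper bars stay between -0.50 and 0.33.

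Nuclear partners of the plastid-encoded proteins could be followed for few genes. Of 105 genes listed, 15 had a named probe set, and 0 of the 15 passed the limma test, against 0.677% of all probe sets. At an unadjusted limma p under 0.05 there were 0, against 5.13% of all probe sets higher and 7.11% lower. The groups did not overlap for 1 that was higher (PSBY) and 2 that were lower (PRPL3 and PRPL29). Over all probe sets the shares without overlap were 7.71% and 9.3%. For photosystem I, PSAE1 and PSAN, 2 of 12 listed, differed by 0.04 and 0.10 (log2). For photosystem II, PSBW and PSBY, 2 of 10 listed, differed by 0.09 and 0.20. PSBY averaged 9.45 ± 0.09 in canopy petioles and 9.26 ± 0.09 in those of single plants (SD, n = 3 each, log2; limma adjusted p = 0.45). ATPC1, the γ subunit of the ATP synthase, differed by 0.18 ± 0.10 (log2, SE). Of 9 listed nuclear genes of the NADH dehydrogenase-like complex, NDHL and NDHS were higher by 0.25 and 0.17 and NDHN differed by -0.20. Of 28 listed nuclear genes of the plastid ribosome, 6 were measured, 1 higher and 5 lower in the canopy, with a median of -0.11. The ribosomal protein gene PRPL3 (AT2G43030) averaged 8.88 ± 0.04 in canopy petioles and 9.07 ± 0.05 in those of single plants (SD, n = 3 each, log2; limma adjusted p = 0.42). Of 3 listed phage-type polymerase genes, 1 was measured, RPOTmp (AT5G15700). It was near the low end, at 1.05 ± 0.30 in canopy petioles and 0.98 ± 0.12 in those of single plants (SD, n = 3 each, log2). The 6 sigma factors, 12 polymerase-associated proteins and 17 RNA-processing factors listed had no named probe set.

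The labelled tissue could be checked with few markers. The lists of markers for green tissue, vascular tissue, flowers and seeds, with 4, 4, 4 and 2 genes, had no named probe set. Of the epidermal and guard-cell markers 1 of 3 was measured, FAMA, between 1.28 and 1.69 in the canopy and between 1.16 and 1.39 in single plants. Of the root hair markers 1 of 2 was measured, EXPA7, near the low end of the scale, between 0.78 and 0.94 in the canopy and between 1.00 and 1.05 in single plants. Neither passed the limma test, and their part in the plastid values was not tested.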

How the data were processed

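The deposited values are log2 expression values that the authors made with RMA (robust multi-array average) from Affymetrix 3′ arrays (R 2.15.0, as the submitters' processing notes state). The scale was read as log2. Its zero point is unknown, and the chip definition is not given in the sources used here. Genes came from the platform annotation, matched by gene number to the RefSeq table of TAIR10.1. The values name no genome build, so that table served only for names, gene order and overlaps between genes.

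All 22746 probe sets other than Affymetrix controls entered one limma fit (version 3.58.1 under R 4.3.3, lmFit with eBayes, two-sided) of canopy minus single, with no filter and no replicate block, and called at a Benjamini-Hochberg adjusted p under 0.05. The fit was tested on simulated data. Where a gene has several probe sets the one with the highest mean stands for it, which applied to 0 plastid genes. Classes follow the gene symbol. The genes, lists and tests were chosen with earlier results of these data known. Values per array are given for the 2 genes with the smallest p and the one with the highest mean of each class of 3 or more, rbcL, psbA and the genes with the widest range in either group. Those of psbL, rps18 and ycf4 were added after their values were seen. Canopy values per array of rpl2, rpl23, rps12 and rps7, which are not members, are also given outside this rule. The number of arrays limits the precision.

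Replicate numbers were not taken as pairs, since deviations of same-numbered arrays from their group means correlated at 0.002, 0.099 and -0.064. Alternatives covered the replicate block, a filter on low levels, 3 other scalings, array weights, an intensity trend with robust moderation, another threshold, probe sets of several genes, averaging of probe sets, and leaving out each array.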

Additional observations from a re-analysis of the deposited data

How the results depend on the processing

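No plastid gene and no nuclear partner gene was called at an adjusted p under 0.05 under any alternative, or at one under 0.1 with all 6 arrays. With the replicate number as a block, 3 plastid genes instead of 5 were lower at an unadjusted p under 0.05. Equal array medians, repeated quantile normalization and the intensity trend each gave 1 higher gene at that threshold instead of 0. Leaving out 1 array gave 0 to 3 higher and 0 to 8 lower. The signs of psaB (-0.016) and clpP (-0.012) turned under repeated quantile normalization. Leaving out 1 array turned the sign of psaB (-0.026 to 0.097), psbD (-0.49 to 0.11), atpA (-0.0053 to 0.21), ndhI (-0.13 to 0.063), clpP (-0.019 to 0.12) and rps18 (-0.017 to 0.54). The median difference ran over these fits from -0.17 to 0.06 in psa, -0.12 to 0.02 in psb, -0.16 to -0.01 in pet, -0.05 to 0.10 in atp, -0.07 to 0.22 in ndh, -0.26 to -0.10 in rpo, -0.18 to 0.01 in rps and rpl and -0.19 to 0.003 in the other genes. Array weights turned the medians of psa (-0.03) and ndh (-0.003), and repeated quantile normalization that of psa (-0.02). Averaging probe sets changed nothing by construction, as each plastid gene has 1. The cause of these shifts was not tested, and signal over background could not be judged without detection calls.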
